A study of Mus musculus with 9 samples.

Results

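G1 cyclins, their kinases, inhibitors of those kinases and the transcription factor E2f1 were followed in the livers of mice on 3 diets. The members were the 10 genes Ccnd1, Ccnd2, Ccnd3, Ccne1, Ccne2, Cdkn1b, Cdkn2c, Cdk4, Cdk6 and E2f1, taken as the array probes that carry those gene names. They had 20 probes in all, and each of the 10 was among the 17635 genes and other features that could be tested. All animals were male C57bl/6J mice, 16 weeks old, after 12 weeks of diet. The chow group received standard food. The HFD group received a purified high-fat diet (D12492, fat at 60 kcal%). The HFD+APS group received that diet with Astragalus polysaccharides, plant carbohydrates abbreviated APS, mixed in at 40 g per kg. Each group had 3 livers on 1 array each, chosen by the authors from a study of 24 mice by HE staining and TG measurement, so p-values describe the spread between selected livers only.

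Cells that leave quiescence first make D-type cyclins, which bind Cdk4 or Cdk6 and begin to phosphorylate the retinoblastoma protein. This releases E2F factors such as E2f1, which switch on cyclin E and the genes of DNA replication, and cyclin E with Cdk2 then drives entry into S phase. The INK4 inhibitor encoded by Cdkn2c (p18) blocks Cdk4 and Cdk6, and the protein encoded by Cdkn1b (p27) restrains cyclin E with Cdk2. Most hepatocytes of an adult liver are quiescent and re-enter the cycle after injury or loss of tissue.

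The whole liver was measured, in which fewer cells of a type and less RNA per cell cannot be told apart. All 8 hepatocyte marker genes were tested, with a summed signal of 1640 to 2260 times the array's upper quartile. The first slide carried the 3 chow arrays, the second carried every HFD array plus HFD+APS 1, and the third carried the remaining HFD+APS arrays, 2 and 3. Slide and diet therefore cannot be told apart in either comparison with chow, while HFD+APS 1 could be set against HFD on their own slide. The scanner software called 61.5 to 68.4% of spots well above background on the first slide, 50.4 to 54.1% on the second and 63.5 to 64.5% on the third. The median signal of negative controls was 48.9 to 49.4, 62.4 to 68.4 and 44 to 47.6, respectively.

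Cyclin E1 was the member that separated the groups. Ccne1 rose in HFD against chow, fell in HFD+APS against HFD, and fell in HFD+APS against chow, and it was the only member past the threshold in each comparison (a limma p adjusted by Benjamini-Hochberg over all features, under 0.05). In HFD against chow, 1 of 10 members passed, beside 10.9% of all features. For HFD+APS against HFD, 1 of 10 passed, beside 1.5% of all features. For HFD+APS against chow, 1 of 10 passed, beside 3.48% of all features. The 3 comparisons share their groups and are not independent.

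The count of members whose 3 values in one group all lay beyond those of the other was no higher than the background in the comparisons with chow. It was 2 of 10 for HFD against chow (Ccne1 and E2f1), beside 38.9% of all features. It was 5 of 10 for HFD+APS against HFD (Ccne1, E2f1, Cdk6, Cdkn1b and Cdk4), beside 24.5% of all features. It was 3 of 10 for HFD+APS against chow (Ccne1, Cdk4 and Cdk6), beside 30.9% of all features. The median log2 change of the members was 0.15, -0.03 and -0.09 in the same order, and that of all features was -0.04, 0 and -0.03.

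**Figure D1:**
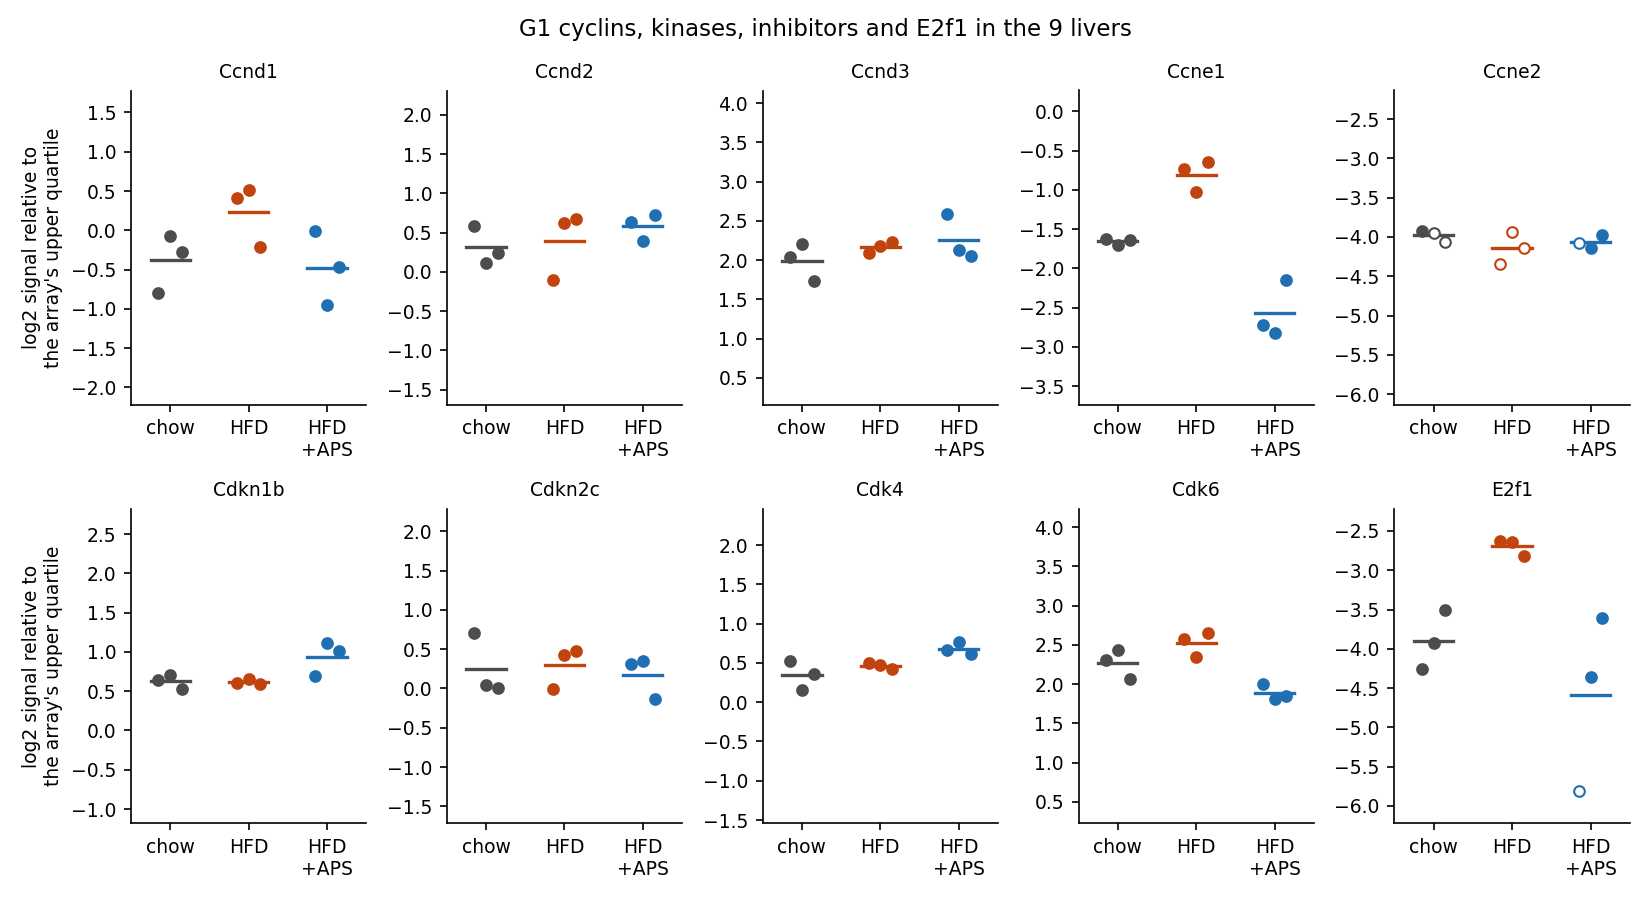
Log2 signal relative to the array's upper quartile for the 10 genes, with 1 point per liver, a line at the group mean, and the same span of log2 units in every panel. Open points were not well above background. Ccne1 is highest in the 3 HFD livers (-1.03 to -0.65) and lowest in the 3 HFD+APS livers (-2.82 to -2.15), while the D cyclins and Cdkn2c overlap between groups.

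The D cyclins, which carry growth signals to Cdk4 and Cdk6, passed the test in no comparison. At an unadjusted limma p under 0.05 there was 1 of 3, Ccnd1 in HFD+APS against HFD, beside 17.9% of all features. Ccnd1, the D cyclin best known from regenerating liver, was read by a probe spotted 10 times per array at chr7:152116173-152116232 on the minus strand (mm9, the build of the array's annotation). Its log2 signal relative to the upper quartile was -0.80, -0.07 and -0.28 in chow 1 to 3, 0.41, 0.51 and -0.21 in HFD 1 to 3, and -0.01, -0.95 and -0.47 in HFD+APS 1 to 3. HFD 1 and HFD 2 were the highest of the 9 livers, but HFD 3 lay within the range of both other groups. The difference was 0.62 ± 0.30 (SE; limma adjusted p = 0.197) for HFD against chow and -0.71 ± 0.30 (adjusted p = 0.265) for HFD+APS against HFD. On the slide that both groups share, HFD+APS 1 differed from the HFD mean by -0.25, against -0.94 for the mean of HFD+APS 2 and HFD+APS 3.

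Ccnd2 stood at 0.59, 0.12 and 0.24 in chow, -0.10, 0.62 and 0.67 in HFD, and 0.64, 0.39 and 0.72 in HFD+APS. The groups overlapped in each comparison. Its largest difference was 0.27 ± 0.23 for HFD+APS against chow (adjusted p = 0.491). All 3 Ccnd2 probes were well above background on all 9 arrays, their log2 changes ran from 0.08 to 0.35 in HFD against chow, and no probe passed. Ccnd3, on a single probe, stood at 2.04, 2.21 and 1.73 in chow, 2.09, 2.18 and 2.23 in HFD, and 2.59, 2.13 and 2.05 in HFD+APS. HFD+APS 1 was the highest liver for Ccnd3, and the groups overlapped, with differences of 0.17 ± 0.17, 0.09 ± 0.17 and 0.26 ± 0.17 in the 3 comparisons (adjusted p = 0.533, 0.823 and 0.383).

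The E cyclins act after the D cyclins, as partners of Cdk2. Ccne1 was read by A_51_P408946, a single spot that was well above background on all 9 arrays. The other Ccne1 probe, A_52_P796682, was well above background on 1 array (chow 3) and was left out of the tests. The annotation gives both the same 24-base interval, chr7:38882937-38882960 on the minus strand (mm9), shorter than the 60-base probes. The first 30 bases of each are shown because the rise and fall of cyclin E1 rests on the first alone.
Ccne1 A_51_P408946: gcatgtcctgccttcatgaactcttatttt
Ccne1 A_52_P796682: ttattgaatgctaagtgttttaactataag
The probes share no run of letters longer than 6 bases, and the annotation places their starts at bases 1874 and 1589 of the transcript.

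Ccne1 stood at -1.63, -1.70 and -1.64 in chow 1 to 3, -0.74, -1.03 and -0.65 in HFD 1 to 3, and -2.72, -2.82 and -2.15 in HFD+APS 1 to 3. In processed signal this was 64.4 to 78.5 in chow, 129.3 to 166.7 in HFD and 35.5 to 55.5 in HFD+APS. The 3 groups did not overlap, with HFD above chow and chow above HFD+APS, and the chow livers lay within a narrow range.

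Ccne1 rose 1.80-fold in HFD against chow, a log2 change of 0.85 ± 0.18 (SE; limma adjusted p = 0.0296; n = 3 per group). It fell 3.37-fold in HFD+APS against HFD, by 1.75 ± 0.18 on the log2 scale (adjusted p = 0.01), and ranked at 17 of 17635 features by p. It fell 1.87-fold in HFD+APS against chow, by 0.90 ± 0.18 (adjusted p = 0.042). On the shared slide, HFD+APS 1 lay 1.91 below the mean of the HFD arrays, and the arrays on the third slide differed from HFD by -1.67. With slide as a fixed block, here and below, HFD+APS against HFD rests on HFD+APS 1 alone. Such a fit does not measure the spread between HFD+APS livers.

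The fall of Ccne1 in HFD+APS against HFD kept its call when each of the 9 arrays was left out and lost it only when the 2 groups were fitted on their own (adjusted p = 0.0727). The rise in HFD did not pass after removal of any chow array, of HFD 1 or of HFD 3 (adjusted p from 0.0638 to 0.0925), with no filter on dim probes (0.0612) or with a random slide block (0.0625); its size stayed between 0.77 and 0.96 with an array left out. The fall against chow lost its call in 14 of 21 alternatives, among them removal of HFD 1, of HFD 2, of HFD+APS 1 or 2, or of any chow array (adjusted p from 0.0526 to 0.128), and its size was between -1.11 and -0.78 with an array left out. Normexp background correction made all 3 Ccne1 changes smaller, at 0.48 (adjusted p = 0.0291), -0.92 (adjusted p = 0.00414) and -0.44 (adjusted p = 0.0578).

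**Figure D2:**
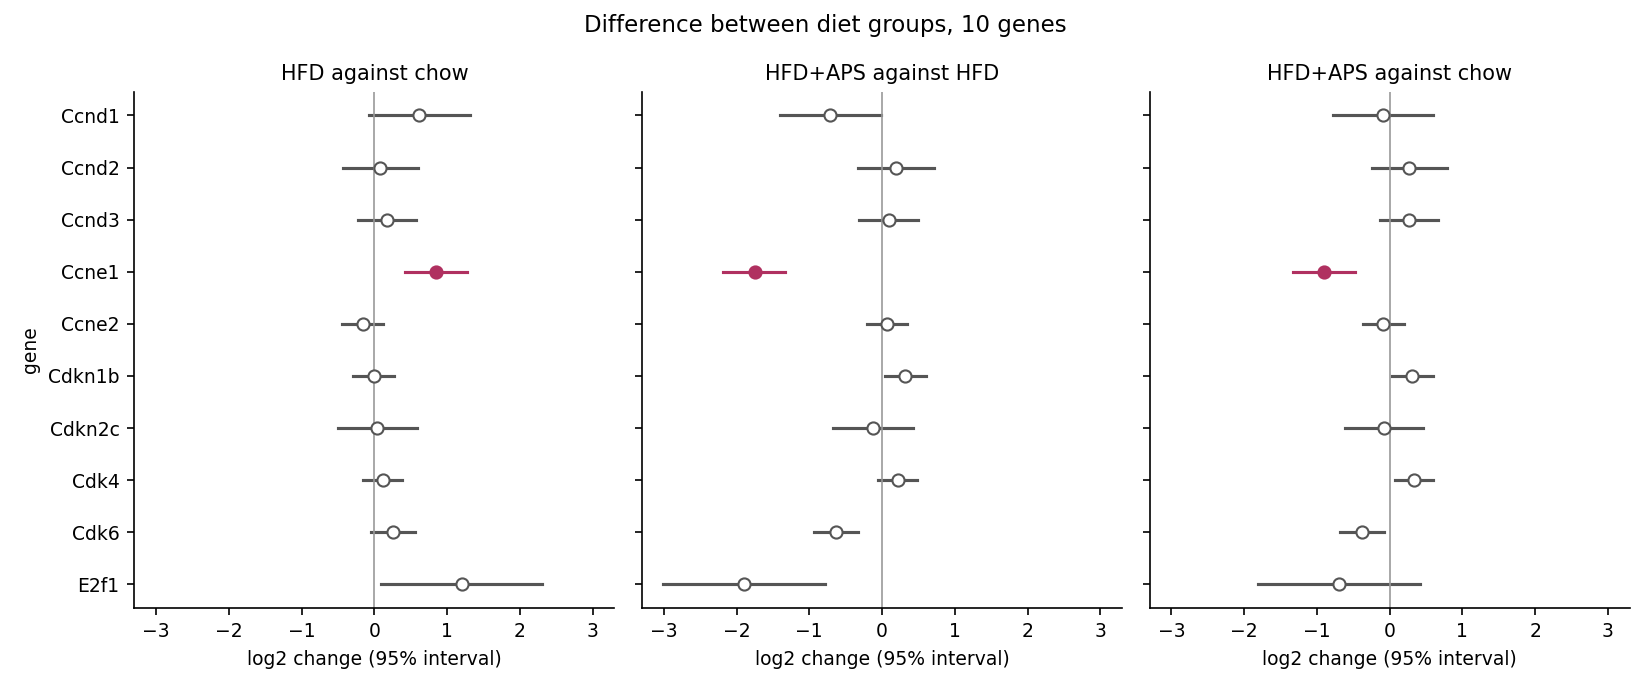
Log2 change of each gene in the 3 comparisons, with the 95% interval from the limma fit; filled red points passed the threshold. Ccne1 is the only red point in each panel, at 0.85, -1.75 and -0.90, and the intervals of E2f1 are the widest.

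Cyclin E2 (Ccne2), the close relative of cyclin E1, was too dim to compare. Its brighter probe (A_52_P58560, chr4:11130171-11130230, plus strand, mm9) was well above background on 3 arrays, which were chow 1, HFD+APS 2 and HFD+APS 3, and on none of the HFD arrays. It read -3.93, -3.95 and -4.06 in chow, -4.34, -3.94 and -4.14 in HFD, and -4.08, -4.14 and -3.97 in HFD+APS. These values overlapped between groups. The detection limit here means the dimmest signal that the scanner software called well above background. It was -3.51 to -3.13 on the HFD arrays, above all 3 HFD readings, and -4.54 to -3.47 on the other arrays. An uncalled reading can still exceed it, as on chow 2 (-3.95, with a limit of -4.03), and no fold is given. The other Ccne2 probe was well above background on 1 array.

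Neither kinase passed the test in any comparison. The unadjusted limma p for Cdk6 was 0.00124 in HFD+APS against HFD and 0.0195 in HFD+APS against chow. For Cdk4 it was 0.0197 in HFD+APS against chow. Cdk6, which binds D cyclins, had 3 probes with different readings. The brightest, A_51_P489779 (chr5:3529287-3529346, plus strand, mm9), matches a cDNA clone that the annotation assigns to Cdk6. A_52_P417489 starts at base 693 of the Cdk6 transcript and its 60 bases map across 42285 bases of the genome (chr5:3473220-3515504), as for a probe that crosses a splice junction. The third, A_51_P388310, was well above background on none of the 9 arrays. The junction probe is shown whole because its reading of chow differs from that of the clone probe.
Cdk6 A_52_P417489: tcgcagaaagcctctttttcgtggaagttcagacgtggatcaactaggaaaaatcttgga
The probes share at most 6 letters in a row.

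By its brightest probe Cdk6 stood at 2.31, 2.43 and 2.07 in chow 1 to 3, 2.57, 2.34 and 2.65 in HFD 1 to 3, and 2.0, 1.81 and 1.85 in HFD+APS 1 to 3. All HFD+APS livers were below all chow and all HFD livers, and chow and HFD overlapped. The difference was -0.63 ± 0.13 for HFD+APS against HFD (adjusted p = 0.0623) and -0.38 ± 0.13 for HFD+APS against chow (adjusted p = 0.127). By the junction probe the values were -1.79, -2.0 and -2.04 in chow, -1.40, -1.72 and -1.62 in HFD, and -2.03, -1.89 and -2.01 in HFD+APS. Here HFD lay above both other groups and HFD+APS overlapped chow, with differences of 0.36 ± 0.12 for HFD against chow (adjusted p = 0.0895), -0.40 ± 0.12 for HFD+APS against HFD (adjusted p = 0.154) and -0.03 ± 0.12 for HFD+APS against chow (adjusted p = 0.902). Both probes thus gave lower values in HFD+APS than in HFD, and they differed in where chow lay. The brightest probe passed the test of HFD+APS against HFD under normexp background correction (adjusted p = 0.0383), among probes detected on every array (0.0464) and with array weights (0.0274).

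Cdk4, the other D cyclin kinase, was read by 1 probe at base 603 of its transcript (chr10:126501967-126502026, plus strand, mm9), shown because it is the only measure of this kinase.
Cdk4 A_51_P437027: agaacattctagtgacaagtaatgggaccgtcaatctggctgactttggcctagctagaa
Cdk4 stood at 0.52, 0.15 and 0.36 in chow, 0.50, 0.47 and 0.42 in HFD, and 0.66, 0.77 and 0.61 in HFD+APS. All HFD+APS livers lay above the others, by 0.22 ± 0.12 against HFD (adjusted p = 0.366) and 0.33 ± 0.12 against chow (adjusted p = 0.127), and neither difference passed. On the shared slide the difference from HFD was 0.20.

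The inhibitors did not pass the test in any comparison; Cdkn1b reached an unadjusted p of 0.0303 against HFD and 0.0345 against chow in HFD+APS. Cdkn1b had 3 probes, of which A_51_P146126 (chr6:134875215-134875274, plus strand, mm9) was the brightest. It stood at 0.64, 0.71 and 0.53 in chow 1 to 3, 0.61, 0.65 and 0.59 in HFD 1 to 3, and 0.70, 1.11 and 1.01 in HFD+APS 1 to 3. HFD+APS 2 and HFD+APS 3, both on the third slide, were the highest, while HFD+APS 1 lay within the range of chow. The difference was 0.32 ± 0.12 against HFD (adjusted p = 0.224) and 0.31 ± 0.12 against chow (adjusted p = 0.164). On the slide shared with HFD it was 0.09, against 0.44 for the arrays on the third slide. Whether the slide has a part in this was not tested.

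A second Cdkn1b probe, A_51_P169173, is spotted 10 times per array and starts at base 684 of the transcript (chr6:134871103-134871161), apart from the brightest probe at base 2076. It is shown because it reads another stretch of the p27 transcript.
Cdkn1b A_51_P169173: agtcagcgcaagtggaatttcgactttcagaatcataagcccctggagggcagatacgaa
Its values were -1.69, -2.02 and -1.78 in chow, -1.58, -1.52 and -1.62 in HFD, and -1.63, -0.92 and -1.11 in HFD+APS. Again HFD+APS 2 and HFD+APS 3 were the highest and HFD+APS 1 lay among the others. The difference of HFD+APS from chow was 0.61 ± 0.18 (adjusted p = 0.103, with every detected probe tested). The third probe, A_52_P673863, was well above background on 8 of 9 arrays. It differed by 0.16 ± 0.15 from chow and by -0.07 ± 0.15 from HFD, against 0.35 ± 0.18 from HFD for A_51_P169173, so the 3 probes did not share a direction against HFD.

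Cdkn2c stood at 0.71, 0.04 and 0.01 in chow, -0.01, 0.42 and 0.48 in HFD, and 0.31, 0.35 and -0.14 in HFD+APS (chr4:109333779-109333838, minus strand, mm9). Chow 1 was the highest liver, and the groups overlapped. The differences were 0.04 ± 0.24, -0.12 ± 0.24 and -0.08 ± 0.24 in the 3 comparisons (adjusted p = 0.925, 0.823 and 0.861). Its other probe shares a run of 40 bases with the first and gave changes of 0.07, -0.08 and -0.01, so it is no independent reading.

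E2f1, the activator that lies downstream of the D cyclin kinases, was highest in every HFD liver but did not pass. It was read by A_52_P587611 (chr2:154386004-154386063, minus strand, mm9), well above background on 8 of 9 arrays. The other E2f1 probe, A_51_P120636 (chr2:154385742-154385801), is spotted 10 times and was well above background on chow 1 only. The first 30 bases of each are shown because the readings differ.
E2f1 A_52_P587611: cgggaatgaaggtgaacacatctgtatgtg
E2f1 A_51_P120636: ctttaatggagcgtttatttatttatcgag
The annotation places their starts at bases 1771 and 2033 of the same transcript.

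By the first probe E2f1 stood at -4.26, -3.92 and -3.51 in chow 1 to 3, -2.63, -2.64 and -2.82 in HFD 1 to 3, and -5.81, -4.36 and -3.61 in HFD+APS 1 to 3. HFD lay above both other groups, chow and HFD+APS overlapped, and HFD+APS 1 was not well above background. The difference was 1.20 ± 0.48 for HFD against chow (adjusted p = 0.136), -1.90 ± 0.48 for HFD+APS against HFD (adjusted p = 0.0997) and -0.70 ± 0.48 for HFD+APS against chow (adjusted p = 0.409). The last 2 include the dim reading of HFD+APS 1, and with it raised to the detection limit of its array they were -1.12 (adjusted p = 0.0874) and 0.08 (adjusted p = 0.874). Normexp background correction gave 0.36 (adjusted p = 0.048), -0.50 (adjusted p = 0.0366) and -0.14 (adjusted p = 0.423) in the same order. The other probe stayed between -4.79 and -4.05 on all 9 arrays, with group means of -4.38 in chow, -4.44 in HFD and -4.60 in HFD+APS. Without HFD+APS 1 the difference of HFD from chow passed (1.20, adjusted p = 0.0239; 4 of 20 alternatives passed) and the difference of HFD+APS from HFD was -1.29. No value within the shared slide is given for E2f1, since HFD+APS 1 was not well above background there.

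**Figure D3:**
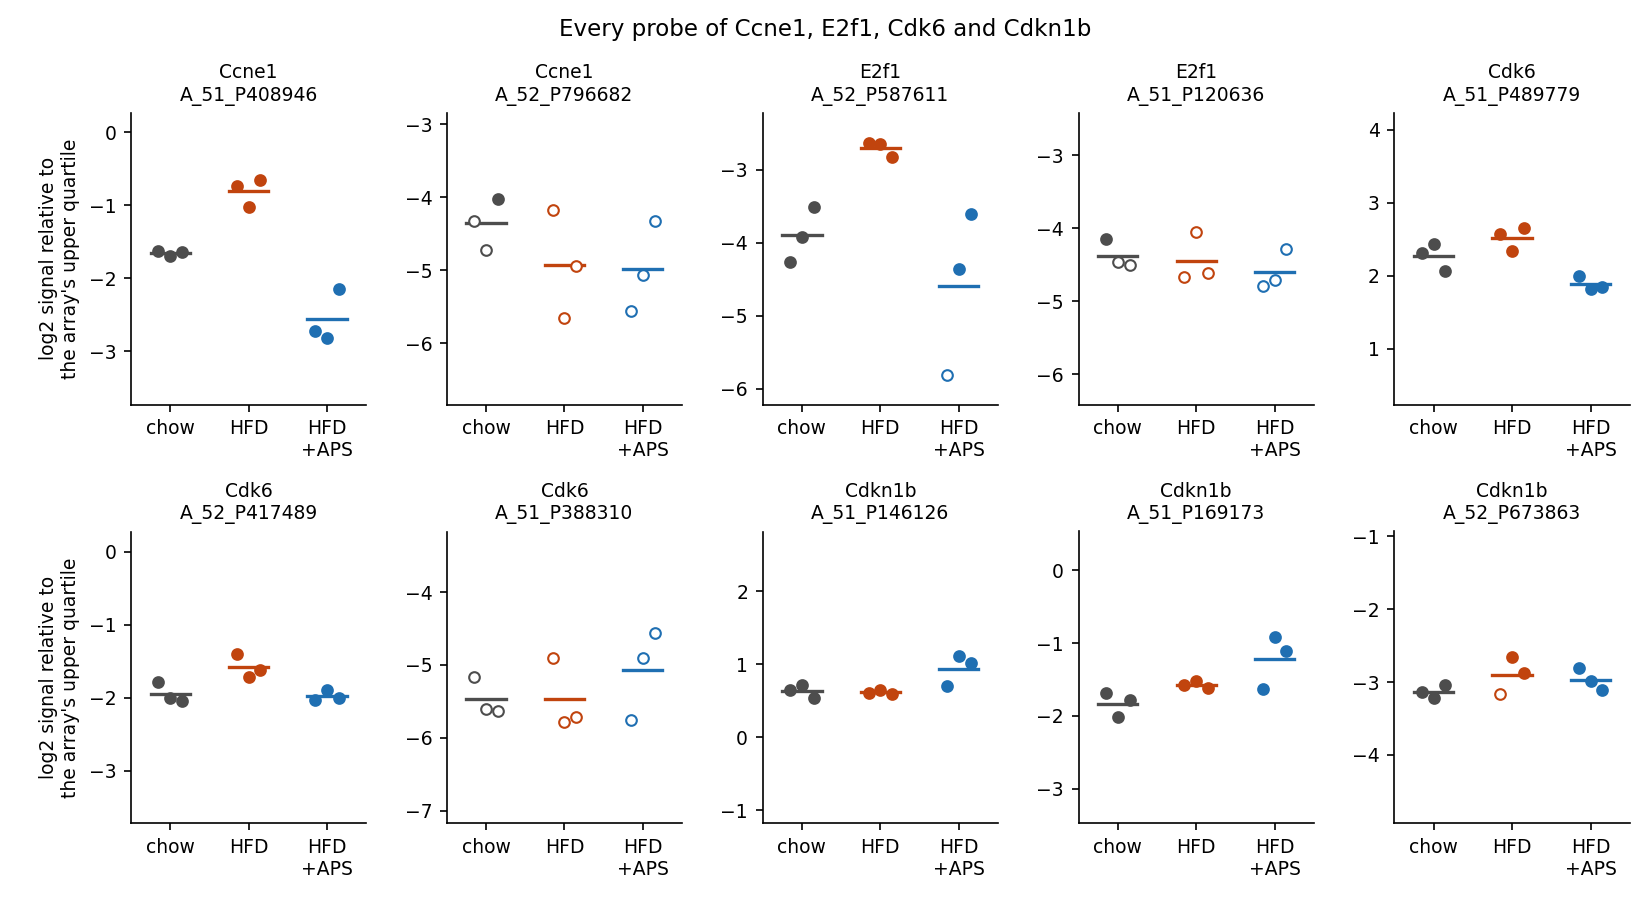
Log2 signal relative to the array's upper quartile for every probe of Ccne1, E2f1, Cdk6 and Cdkn1b, 1 point per liver and a line at the group mean; open points were not well above background, and all panels have the same span. Only 1 of the 2 probes of Ccne1 and of E2f1 was well above background on more than 1 array. By group mean, 2 probes each of Cdk6 and Cdkn1b differ the same way between HFD and HFD+APS. The third Cdkn1b probe, A_52_P673863, well above background on 8 arrays, differs by -0.07 there.

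The other regulators of the G1 to S transition passed about as often as all features did in HFD against chow. Of 31 listed, 29 were tested: 2 rose and 1 fell, beside the 10.9% of all features, with a median log2 change of 0.17 beside -0.04 for all features. Cdkn1c, the p57 inhibitor of cyclin-dependent kinases, rose by 0.51 ± 0.10 (limma adjusted p = 0.0219). Rbl1, which codes for the retinoblastoma relative p107, rose (adjusted p = 0.0271, from the unraised readings). It was well above background on 2 of 3 HFD arrays and on none of the chow arrays. With the chow values raised to each array's detection limit, Rbl1 was 2.70-fold higher in HFD. That fold kept the HFD reading that was not well above background as measured, so it is no strict lower bound, and it was not tested. Fbxw7, the ubiquitin ligase subunit that marks cyclin E protein for degradation, fell by 0.50 ± 0.13 (adjusted p = 0.0452). Between HFD+APS and HFD, 0 of 29 passed by limma (5 at an unadjusted p under 0.05, beside 17.9% of all features), with Cdkn1c at -0.37 (adjusted p = 0.112). Fbxw7 fell in HFD+APS against chow by 0.70 ± 0.13 (adjusted p = 0.033), the only gene of the list to pass there. The 3 calls in HFD against chow became 0 without chow 1, chow 2, HFD 2 or HFD 3 and with no filter on dim probes, 1 without chow 3 or with a random slide block, 2 without HFD 1 or HFD+APS 3, and 5 without HFD+APS 1.

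Some genes that E2F factors activate for DNA replication, and most tested genes of mitosis, rose in HFD against chow as Ccne1 did. Of 20 listed replication genes 17 were tested. In HFD against chow 5 rose and 12 did not pass, beside 10.9% of all features called. Ccna2 (cyclin A2) stood at 2.48 ± 0.34 (adjusted p = 0.00944) and Mcm4, a subunit of the replicative helicase, at 0.95 ± 0.18 (adjusted p = 0.0188). Ccna2 was well above background on 2 of 3 chow arrays, so its change includes a dim chow reading. Gins2, a helicase partner, also rose (adjusted p = 0.0123, from the unraised readings), well above background on 2 of 3 HFD arrays and on 0 chow arrays. With chow raised to the detection limit, Gins2 was 2.03-fold higher in HFD. The dim HFD reading was kept as measured there, so this fold is no strict lower bound, and it was not tested. Without chow 2 only 1 replication gene rose, and without chow 1, chow 3, HFD 2 or HFD 3, 3 did. Ccna2 fell in HFD+APS against HFD (-1.99 ± 0.34, adjusted p = 0.0364), the only one of the 17 to pass there, beside 1.5% of all features. At an unadjusted p under 0.05 there were 9 of 17, beside 17.9% of all features, among them the helicase subunit Mcm5 (-1.19 ± 0.23, adjusted p = 0.0506). Of 14 listed mitotic genes 10 were tested, and 7 rose in HFD against chow, beside 10.9% of all features called. Bub1, a mitotic checkpoint kinase, stood at -0.64 ± 0.20 (adjusted p = 0.0741). Against HFD, 6 of the 10 mitotic genes fell in HFD+APS, beside 1.5% of all features called. Among them were Ccnb2 (cyclin B2, -2.10 ± 0.21, adjusted p = 0.00908), Cdc20, which turns on the anaphase-promoting complex (-2.46 ± 0.33, adjusted p = 0.0181), and the proliferation marker Mki67 (-1.65 ± 0.27, adjusted p = 0.0311). These 6 became 1 to 3 after removal of any chow array, of HFD 2 or 3, or of HFD+APS 2 or 3, and 0 replication genes fell without chow 2, chow 3 or any of those 4 arrays. Between HFD+APS and chow, 0 genes of either list passed by limma, beside 3.48% of all features. At an unadjusted p under 0.05 there were 0 of 17 and 1 of 10, beside 25.2% of all features. Mki67 stood at 0.48 ± 0.27 and Ccnb2 at -0.06 ± 0.21 there, whereas Ccne1 was called lower.

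**Figure D4:**
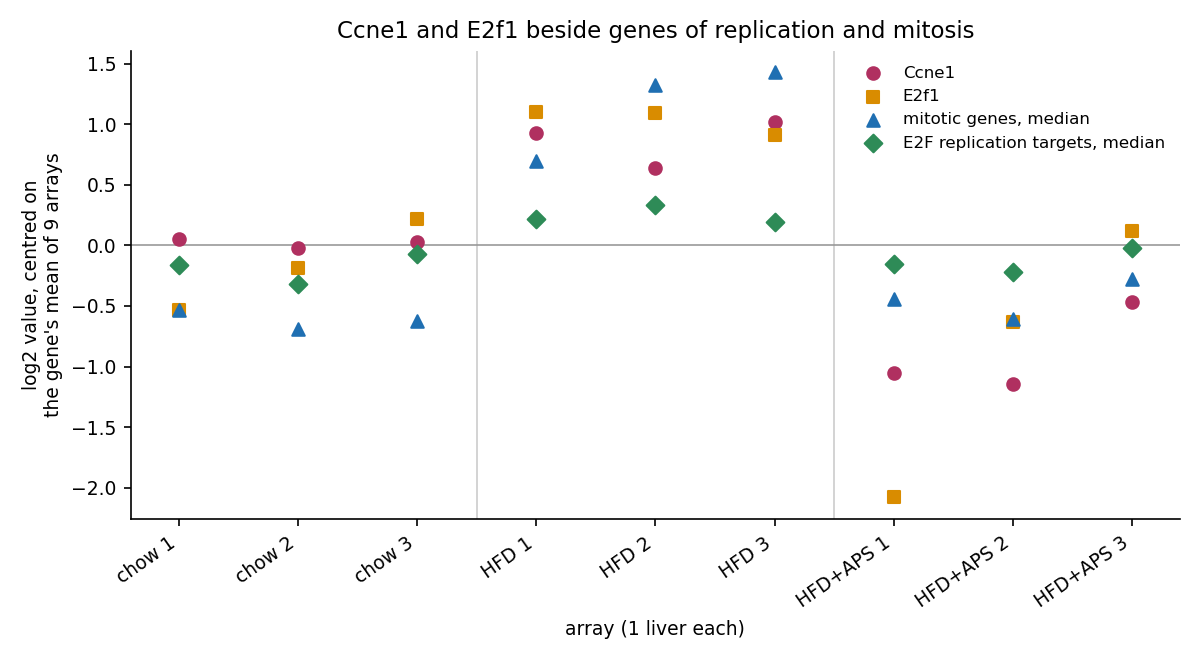
Log2 values centred on each gene's mean over the 9 arrays for Ccne1 and E2f1, with the median over the tested mitotic genes and replication genes, 1 point per array. Ccne1 lies at 0.64 to 1.02 in the HFD livers and -1.14 to -0.47 in the HFD+APS livers, and the mitotic median at 0.70 to 1.43 and -0.61 to -0.28; the lowest E2f1 point (HFD+APS 1) was not well above background.

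Some markers of cells other than hepatocytes also differed between the groups. Of all features, 10.9% were called in HFD against chow, 1.5% in HFD+APS against HFD and 3.48% in HFD+APS against chow. Of 8 listed markers of monocyte-derived macrophages 7 were tested and 2 rose in HFD against chow (Trem2 and Ly6c2). Cd9 of this list stood the other way, at -0.71 ± 0.26 (limma adjusted p = 0.113). The summed signal of the list, in multiples of the upper quartile, was 12.7 to 13.4 in chow, 25.7 to 34.8 in HFD and 12.3 to 23.6 in HFD+APS. Ly6c2 was the brightest gene in that sum, with a mean log2 value of 4.55 in HFD. Of 8 stellate cell markers 2 rose in HFD (Col1a1 and Col3a1). The summed signal of the list was 68.7 to 123 in chow, 116 to 138 in HFD and 111 to 129 in HFD+APS. That sum follows mostly Dcn, at a mean log2 value of 6.78 in HFD, beside 0.16 for Col1a1 and 2.19 for Col3a1. Dcn did not pass in HFD against chow (0.39 ± 0.20, limma adjusted p = 0.227). Of 8 sinusoidal endothelial markers 2 rose in HFD against chow. Their summed signal was 29.9 to 49.4 in chow, 59.2 to 71 in HFD and 64.4 to 74.3 in HFD+APS. Fcgr2b was the only marker of these cell type lists called in HFD+APS against chow (1.14 ± 0.25, limma adjusted p = 0.049). No marker of any of these lists passed in HFD+APS against HFD. Of 8 Kupffer cell markers 0 passed by limma in any comparison. At an unadjusted p under 0.05 there were 6, 0 and 3, beside 31.4, 17.9 and 25.2% of all features. The summed Kupffer cell signal was 37 to 57.3 in chow, 63.5 to 98.4 in HFD and 49.7 to 105 in HFD+APS. Of 9 lymphocyte markers 1 fell in HFD against chow, and 0 of 6 cholangiocyte and 0 of 4 neutrophil markers passed by limma (0 and 0 at an unadjusted p under 0.05). The summed neutrophil signal was 1.42 to 6.47 in chow, 4.56 to 49.7 in HFD, with HFD 3 the highest, and 2.80 to 8.80 in HFD+APS. The 1 adipocyte marker tested, Cfd (adipsin), stood at 4.44 ± 1.44 in HFD against chow (adjusted p = 0.0812; unadjusted p = 0.0144) and -5.12 ± 1.44 in HFD+APS against HFD (adjusted p = 0.126; unadjusted p = 0.00703). The summed hepatocyte signal was 2100 to 2260 in chow, 1640 to 2030 in HFD and 1710 to 2210 in HFD+APS, and 2 of 8 hepatocyte markers fell in HFD against chow (Serpina1c by 0.73, adjusted p = 0.0175, and Tat by 0.73, adjusted p = 0.0417). Of the neutrophil markers Ngp, Camp and Elane, each was well above background on 2 arrays or fewer. The part of these cells in the values of Ccne1 was not tested.

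The features whose centred values over the 9 arrays lay nearest to Ccne1 were Trip13, an ATPase of the mitotic checkpoint, at a root mean square difference of 0.21 log2 units, the clone-named gene 4921528I07Rik at 0.30, and Figla, known as a germ cell transcription factor, at 0.30. Trip13 differed by 0.61 between HFD and chow and by -1.58 between HFD+APS and HFD.

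RefSeq promoters of 300 bases (GRCm38.p6, 250 bases before to 50 after the start of transcription) were given for 7 members, in 9 windows. The 8-letter E2F words TTTCCCGC, TTTCGCGC, TTTGCCGC and TTTGGCGC were searched on both strands and occurred in none of the 9 windows, beside 2.26% of 32851 promoters. The 6-letter cell cycle homology word TTTGAA was also in none, beside 17.9% of all. The Ccne1 window lies at chr7:38107441-38107740 on the minus strand, with 76% G or C. The E2f1 window may lie inside the gene and not at its main start. No match says only that these letters are not in these windows.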

How the data were processed

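The authors hybridised liver RNA to 9 Agilent 1-colour (Cy3) arrays. The scans were read with the software Feature Extraction 10.7.1.1, per the file headers. The deposited processed signal is a spot intensity after background subtraction, detrending within the array and surrogates for small values, per the file headers. Mean and background intensity, and other columns holding that software's flags, come from the same deposited files. The deposited table of all samples holds log2 values with column medians of 4.98 to 4.99 by the authors; they follow each array's log2 signal (r of 0.9969 or more), with direction clear, and their normalization is not given in the sources used here. Whether genes were centred there was checked: they were not.

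Here, flagged spots were dropped, log2 values of replicate spots averaged (41174 probes) and each array's 75th percentile subtracted. Probes well above background on at least 3 of 9 arrays were kept (26477), with the brightest probe standing for a gene; dim and several-probe genes depend on both choices. Names came from RefSeq (GRCm38.p6; 7428 probes kept the file's name), positions from the array's mm9 annotation; whether a probe is exonic was not determined. limma 3.58.1 (R 4.3.3) fitted the 3 groups on 9 arrays (6 residual and 2.21 prior degrees of freedom), tested on simulated data first. Precision is limited by 3 arrays per group. Named genes were the members, up to 3 called genes per list and comparison with the smallest p, and the 3 features nearest to the leading member; HFD against chow and HFD+APS against HFD both led to Ccne1. Other genes were named after their values were seen. The members, lists and tests were chosen with earlier results of these data known. Alternatives covered background correction, normalization, filter, probe choice, fit, slide, replicate block, array weights and each array left out.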

Additional observations from a re-analysis of the deposited data

How the results depend on the processing

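Ccne1 kept its direction in all 3 comparisons under every alternative run. The number of members called, 1 in each comparison, moved as follows. In HFD against chow it was 2 with normexp, with only the 2 groups compared and with dim values raised to the lowest detected signal (an alternative chosen after seeing the data), E2f1 being the second, 0 with no filter or slide as a random block, and 0 to 2 with an array left out. For HFD+APS against HFD it was 3 with normexp (E2f1 and Cdk6 added), 2 with probes detected on all 9 arrays, array weights (Cdk6) or slide as a fixed block (E2f1, resting on the dim reading of HFD+APS 1), and 0 with only the 2 groups. For HFD+APS against chow it was 0 with normexp, quantile normalization, the authors' values, no filter, only the 2 groups, the replicate block or a random slide block, 2 with array weights (Cdkn1b added), and 0 to 1 with an array left out.

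The replicate numbers did not pair the livers (correlations of -0.18 to 0.16 for equal numbers, -0.19 to 0.22 for others). With the replicate block Ccne1 in HFD+APS against chow had an adjusted p = 0.0505.

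Directions reversed only for changes that had not passed. In HFD against chow, Cdkn1b was 0.06 with normexp, 0.16 as the mean of its probes, 0.04 with array weights, 0.02 with a random slide block and -0.06 to 0.03 with an array left out; Ccne2 was 0.61 with raised dim values; with an array left out Ccnd2 was -0.05 to 0.33 and Cdkn2c -0.08 to 0.27. Between HFD+APS and HFD, Cdkn2c was 0.01 with slide as a fixed block and -0.28 to 0.03 with an array left out, Ccnd3 -0.03 with array weights and -0.08 to 0.19, Ccne2 -0.50 with raised values and -0.03 to 0.17, and Ccnd2 -0.06 to 0.32. Between HFD+APS and chow, Ccne2 was 0.15 with quantile normalization and the authors' values and 0.12 with raised values, E2f1 0.08 with raised values, and with an array left out Ccnd1 was -0.32 to 0.14 and Cdkn2c -0.20 to 0.15. The cause was not tested.

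Calls over all features, 1929, 265 and 614, were 798, 79 and 224 with no filter, 3401, 1272 and 3508 with array weights, 684, 164 and 165 with a random slide block, and 365 to 2711, 51 to 578 and 21 to 1607 with an array left out. The last 2 were 82 and 296 with the replicate block and 25 and 344 with only the 2 groups. HFD+APS against HFD gave 169 with raised dim values. In HFD+APS against chow 27.7% of calls were higher, 41.9% with normexp and 4.35 to 34.9% with an array left out; in HFD+APS against HFD it was 31.7%, and 60.3% with slide as a fixed block. Mitotic genes called in HFD+APS against HFD, 6, were 3 with no filter or the replicate block, 1 with slide as a fixed block, 0 with only the 2 groups, and 1 to 6 with an array left out. Replication genes called in HFD against chow, 5, were 3 with no filter or slide as a random block, and 1 to 5 with an array left out; other regulators, 3, were 0 to 5. Signal over background limits Ccne2 and E2f1.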
